A study of Sus scrofa with 6 samples.

Results

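The genes described here encode the HSP70 and HSP110 chaperones, listed as HSPA6, HSP70.2, HSPA1L, HSPA2, HSPA8, HSPA13, HSPA14, HSPA4, HSPA4L and HSPH1. They were chosen by family, as the rows of the count table whose pig Ensembl identifier carries the symbol. Of the 10 symbols 9 were matched, out of 35670 identifiers in the table, and HSPA2 was not analysed here. Stranded mRNA libraries were made from pig granulosa cells in primary culture, the follicle cells that surround the oocyte, aspirated from small healthy ovarian follicles and grown in flasks with fetal bovine serum. The control group (n = 3) was kept at 37 °C and the heat group (n = 3) at 42 °C, for 6 h, before harvest with trypsin. The labels number the libraries of a group as biological replicates and do not name an animal or a culture for each, so p-values measure the spread between these libraries only. The series asks which genes of these cells respond to heat.

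HSP70 proteins bind exposed hydrophobic stretches of other proteins and release them in a cycle driven by ATP. J-domain proteins (the HSP40 group) start the cycle by speeding ATP hydrolysis. Exchange factors, among them the HSP110 proteins and some proteins of the BAG family, restart it by releasing ADP. Some family genes are transcribed at all times, HSPA8 being the best known, while others are switched on by heat shock factor 1 (HSF1) when proteins unfold. HSPA13 belongs to the family by sequence but is known as a protein of microsomes, so the word cytosolic does not cover it.

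Likeness between libraries did not follow the groups alone, which bears on every test. Totals lay between 18711440 and 29606378 counts. Across genes (on log2 CPM, CPM being counts relative to the total of their library) control 2 and control 3 correlated at 0.990 and heat 1 and heat 2 at 0.991, while control 1 and heat 3 were nearest to each other, at 0.920. These correlations run over genes, which are no replicates, and are a description. Of 10 granulosa markers 8 were matched and 4 had enough reads to test, with no call by edgeR. Their mean levels in control and heat were 265 and 173 CPM for INHBA, 36.4 and 65.3 for CYP11A1, 17.9 and 42.2 for FST and 12.1 and 10.3 for NR5A2. The other 4 were near 0: FSHR had between 0 and 49 reads per library, AMH between 0 and 6, and INHA and AMHR2 between 0 and 7. The summed CPM of 7 theca and stroma markers ran from 9609 to 38998 in controls and from 22438 to 49904 in heat, with control 1 above heat 3, and CYP17A1, the defining theca enzyme, had at most 4 reads. Of 5 ovarian surface markers 3 were matched and 2 tested, KRT8 and UPK3B, both called higher (as were 6.71% of all genes). Their summed CPM ran from 1.70 to 4.94 in controls and from 9.18 to 13.0 in heat. UPK3B had 3, 5 and 4 reads in the controls and passed the filter on low counts through its heat libraries alone. KRT18 had at most 7 reads per library and was not tested. Leukocyte markers (3 tested, of which LYZ was called lower) summed to 28.1 and 57.6 CPM in control 2 and control 3 and to at most 4.29 elsewhere, and PTPRC, a leukocyte marker, had 35 and 64 reads in those controls and 0 in every other library. Only 1 of 5 endothelial markers was tested, at 5.23 to 10.8 CPM. The part of these differences in the results was not tested.

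The family did not move as a whole. HSPA6, HSP70.2, HSPA1L and HSPH1 rose, with log2 fold changes between 3.59 and 9.03, and HSPA13 fell by 1.19 on the log2 scale. HSPA8, HSPA14, HSPA4 and HSPA4L did not pass. All 9 matched members passed the filter on low counts, HSPA6 through its heat libraries alone, so the count of members is given as a description. By edgeR's quasi-likelihood test, called below an adjusted p of 0.05 over 14242 genes, 4 of 9 members were higher, against 6.71% of all genes, and 1 was lower, against 4.32%. Every heat library lay above every control for 5 members, as for 20.9% of all genes, and below for 2, as for 16.8%.

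The calls changed with the libraries that entered the fit. Without control 1, edgeR called 4 members higher (19.6% of all genes) and 2 lower (12.3%), and leaving out heat 3 gave 4 higher (18.4%) and 2 lower (17.7%). Without either control 2 or control 3 it called 0 members and 0% of all genes, although at an unadjusted p below 0.05 each of these fits had 4 members higher (12.6 and 12.9% of all genes), with 2 and 1 lower (8.42 and 9.06%). Leaving out heat 1 or heat 2 left HSPA6 as the only call (0.0475% and 0.0406% of all genes higher), with 4 members higher (12.3% of all genes in both fits) and 1 lower (9.14 and 9.75%) at an unadjusted p below 0.05. With control 2 and 3 summed and heat 1 and 2 summed, HSPA6 was again the only call (0.0129% of all genes higher). With control 1 and heat 3 both left out, 5 members were higher (41.2%) and 2 lower (38.4%). DESeq2 called 5 higher (14.9%) and 2 lower (12.6%) with all libraries, adding HSPA8 and HSPA14. DESeq2 called 5 members higher without control 1 (23.8% of all genes) or heat 3 (21.3%), and 4 without control 2 (5.4%) or control 3 (6.31%) and, leaving out heat 1 (4.56%) or heat 2 (4.7%), again 4. Members lower by DESeq2 numbered 2 without control 1 (18.6%) or heat 3 (23.5%), 1 without control 3 (3.97%), heat 1 (4.69%) or heat 2 (4.91%), and 0 without control 2 (3.28%), where 2 were lower at an unadjusted p below 0.05.

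HSPA6 encodes HSP70B′, a strictly inducible HSP70 that many cells hardly make without stress. Its gene lies on chromosome 4 at 88970592 to 88973109 (RefSeq, Sscrofa11.1, matched by symbol). The controls held 4, 20 and 7 reads of it and the heat libraries 3126, 3214 and 16406. On the TMM scale (edgeR's correction of the library totals) these were 0.267, 0.873 and 0.347 CPM in control 1, 2 and 3 against 156, 149 and 501 CPM in heat 1, 2 and 3. The groups stood far apart, and within heat the level of heat 3 was more than that of heat 1 and heat 2 together. Means were 0.496 ± 0.329 and 269 ± 201 CPM (SD, n = 3), and the log2 fold change (heat minus control) came to 9.03 ± 0.85 (SE; edgeR adjusted p = 0.00965). It ranged from 8.19 to 9.72 over fits without 1 library. With so few control reads, the control level carries a large counting error, and the fitted fold change carries it too.

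HSP70.2 is the pig gene that RefSeq lists with the synonyms HSPA1A and HSPA1B, the major inducible HSP70. It lies on chromosome 7 at 23925929 to 23927854. Its level was 130, 115 and 141 CPM in control 1, 2 and 3 and 5896, 5773 and 4823 CPM in heat 1, 2 and 3. Every library of a group was close to the others, and heat 3, the highest for HSPA6, was the lowest heat library for HSP70.2. The log2 fold change was 5.41 ± 0.49 (SE; edgeR adjusted p = 0.00906). Without 1 library it stayed between 5.31 and 5.48, so the size of the increase moved far less than its adjusted p, which reached 0.144 without control 2.

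HSPA1L, known in other mammals as a testis-rich HSP70 that heat does not induce, had 26, 23 and 24 reads in the controls and 284, 307 and 733 in heat. Its level went from 1.74, 1.00 and 1.19 CPM to 14.2, 14.3 and 22.4 CPM, a log2 fold change of 3.70 ± 0.39 (SE; edgeR adjusted p = 0.0195). The groups did not overlap. On chromosome 7 its RefSeq span, 23909960 to 23938678, encloses that of HSP70.2, and near-identical HSP70 copies can share reads, so the division of reads between these genes is uncertain. For every 100 reads of HSP70.2, HSPA1L had 1.33, 0.872 and 0.843 in the controls and 0.240, 0.247 and 0.464 in the heat libraries.

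**Figure D1:**
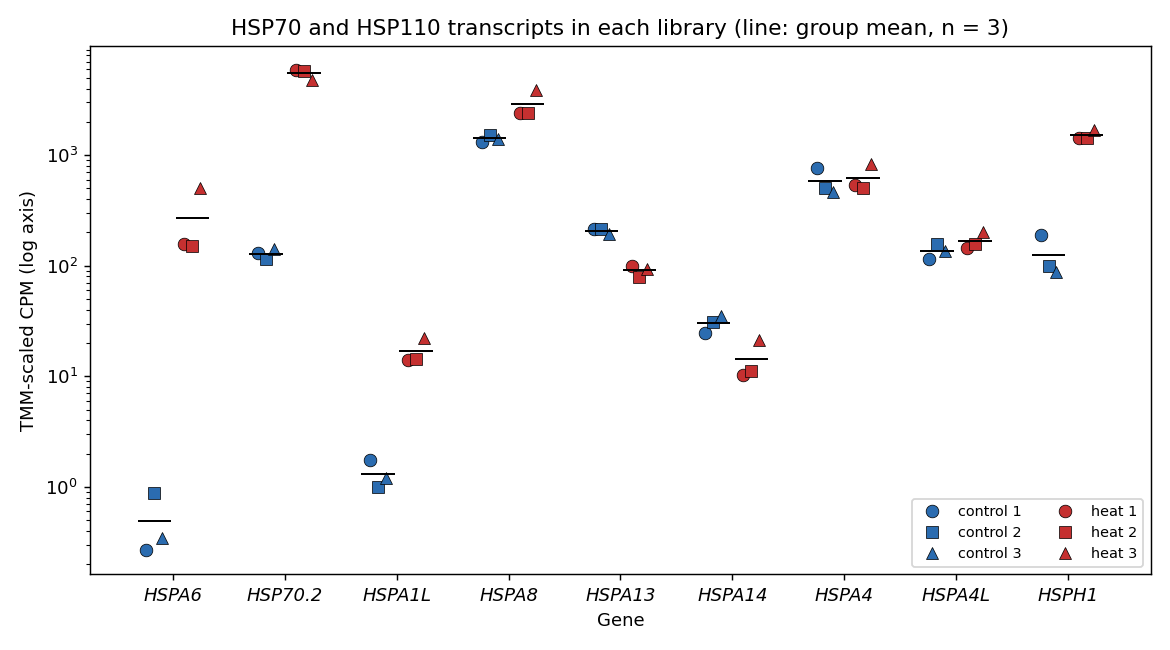
TMM-scaled CPM of each gene (log axis) in the 3 control (blue) and 3 heat (red) libraries, with marker shapes for the replicate number and a line at each group mean. HSPA6, HSP70.2, HSPA1L and HSPH1 separate widely by group, and HSPA4 and HSPA4L overlap. Heat 3 is the highest heat library for every gene shown except HSP70.2 and HSPA13, among them HSPA6 (501 CPM) and HSPA8 (3845 CPM).

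HSPA8, the constitutive HSC70 that folds new proteins and strips clathrin coats, lies on chromosome 9 at 49982278 to 49986760. It stood at 1324, 1508 and 1413 CPM in control 1, 2 and 3 and at 2404, 2382 and 3845 CPM in heat 1, 2 and 3. All heat libraries lay above all controls, and the spread was wider in heat. The mean ratio was 2.03 and the log2 fold change 1.02 ± 0.42 (SE), which did not pass (edgeR adjusted p = 0.134). DESeq2 called it with all libraries, without control 1 and without heat 3, and edgeR called it only with both of those libraries left out (log2 fold change 0.69, edgeR adjusted p = 0.000465).

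Of the divergent members, HSPA13 fell and HSPA14 did not pass. HSPA13, the microsomal relative known as STCH that lacks the usual substrate-binding domain, lies on chromosome 13 at 179309746 to 179321297. It went from 216, 213 and 194 CPM in control 1, 2 and 3 to 100.2, 79.5 and 92.96 CPM in heat 1, 2 and 3. The groups were tight and did not overlap, and the log2 fold change was -1.19 ± 0.29 (SE; edgeR adjusted p = 0.0428). The call was lost with library totals as the only scaling (edgeR adjusted p = 0.0558), without a filter (edgeR adjusted p = 0.0806), with the near-identical libraries summed (edgeR adjusted p = 0.507) and in edgeR fits without control 2, control 3, heat 1 or heat 2 (edgeR adjusted p = 0.155 to 0.183), and by DESeq2 without control 2 (DESeq2 adjusted p = 0.0545). HSPA14, which pairs with the J-domain protein DNAJC2 on ribosomes, lies on chromosome 10 at 46908161 to 46935323. It stood at 24.6, 31.1 and 34.96 CPM in control 1, 2 and 3 and at 10.3, 11.2 and 21.1 CPM in heat 1, 2 and 3. Each heat value was below each control, with a log2 fold change of -1.09 ± 0.37 (SE) that did not pass (edgeR adjusted p = 0.0843). It was called lower without control 1 (edgeR adjusted p = 0.0459), without heat 3 (edgeR adjusted p = 0.0125) and by DESeq2 with all libraries (DESeq2 adjusted p = 0.0210). DNAJC2 had a log2 fold change of -0.68 ± 0.28 (SE) and did not pass (edgeR adjusted p = 0.131).

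The HSP110 genes encode large HSP70 relatives that serve HSP70 as exchange factors and help it to dissolve aggregates. HSPH1 (HSP105), on chromosome 11 at 7733874 to 7759528, rose. It had 189, 100.1 and 87.7 CPM in control 1, 2 and 3 and 1433, 1434 and 1678 CPM in heat 1, 2 and 3. Heat libraries were all above controls, and control 1 was the highest control. The log2 fold change was 3.59 ± 0.47 (SE; edgeR adjusted p = 0.0266). HSPA4 (APG-2), on chromosome 2 at 135345724 to 135391112, stood at 764, 507 and 462 CPM in controls and at 532, 501 and 828 CPM in heat. Its groups overlapped, control 1 and heat 3 being high, and the log2 fold change of 0.10 ± 0.40 (SE; edgeR adjusted p = 0.873) turned negative without control 2, control 3 or heat 3. HSPA4L (APG-1), on chromosome 8 at 97032179 to 97088240, had 114, 156 and 136 CPM in controls and 144, 157 and 202 CPM in heat. These groups overlapped as well, with a log2 fold change of 0.31 ± 0.31 (SE; edgeR adjusted p = 0.498). A p above the threshold does not show that HSPA8, HSPA14, HSPA4 or HSPA4L was unaffected.

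**Figure D2:**
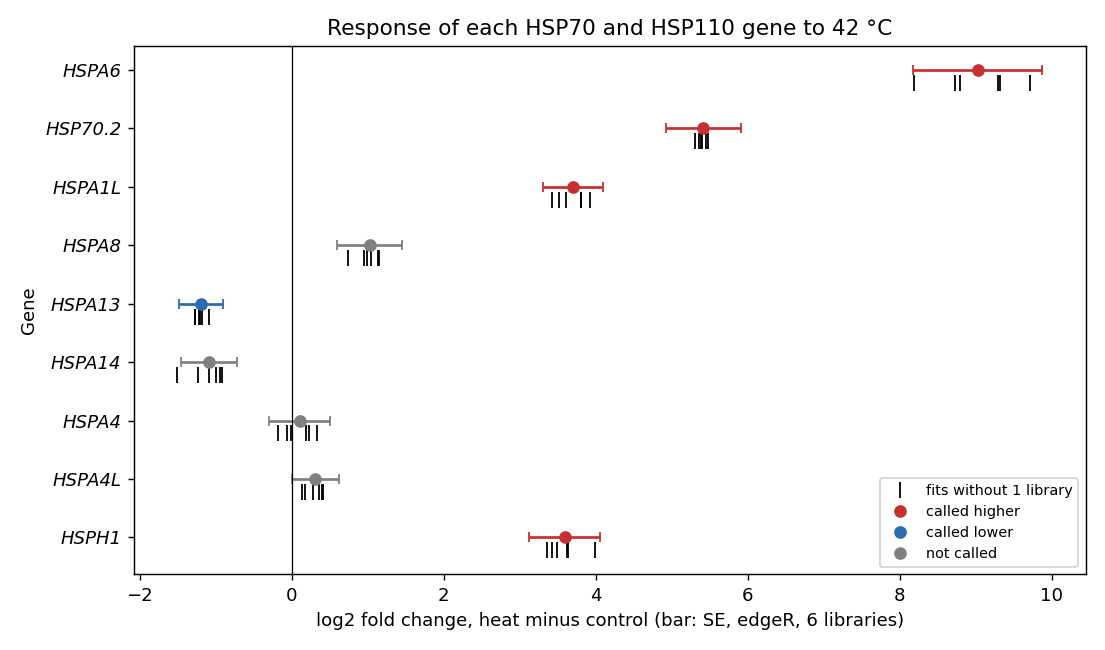
Log2 fold change of each gene, heat minus control, with its SE (edgeR, 6 libraries), coloured by call, and ticks below for the 6 fits without 1 library. The ticks of HSPA6, HSP70.2, HSPA1L and HSPH1 stay at 3.36 or above, those of HSPA13 and HSPA14 stay below 0, and those of HSPA4 fall on both sides of 0.

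As a group, the 9 genes took 0.267, 0.266 and 0.221% of library counts in control 2, control 3 and control 1 and 1.33, 1.11 and 1.04% in heat 3, heat 2 and heat 1. Means were 0.251 ± 0.0263% and 1.16 ± 0.150% (SD, n = 3). The 6 HSP70 genes took 0.172 ± 0.0319% in controls and 0.917 ± 0.0997% in heat (SD, n = 3), and the 3 HSP110 genes 0.0788 ± 0.00584% and 0.242 ± 0.0503%. These sums over chosen genes carry no test. The 95% Wilson intervals of single libraries, which cover counting error only, were at most 0.00907 percentage points wide.

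The make-up of these reads changed from HSPA8 to HSP70.2. HSPA8 took 47.9, 57.3 and 57.2% of the reads of the 9 genes in control 1, 2 and 3 against 22.5, 22.7 and 32.0% in heat 1, 2 and 3. HSP70.2 took 4.71, 4.38 and 5.71% in control 1, 2 and 3 against 55.2, 54.97 and 40.1% in heat 1, 2 and 3. No library of one group reached the range of the other for either gene, and heat 3 was the least changed. Counted over the 6 HSP70 genes alone, HSP70.2 had 7.25 ± 0.946% in controls and 63.1 ± 9.73% in heat, and HSPA8 79.3 ± 1.31% and 32.6 ± 7.59% (SD, n = 3). HSPA6 took 0.0190 ± 0.0125% of the reads of the 9 genes in controls and 2.35 ± 1.58% in heat (SD, n = 3), the most in heat 3, at 4.17%. Together HSPA6 and HSP70.2 took 4.95 ± 0.687% and 52.4 ± 7.04% (SD, n = 3). With HSPA5, HSPA9 and HYOU1, relatives of other compartments, added, HSP70.2 took 3.24 ± 0.695% in controls and 25.4 ± 4.72% in heat. HSPA8 took 35.6 ± 7.04% and 14.4 ± 8.81% (SD, n = 3). In this wider sum heat 3, with 102015 reads of HSPA5 against 290700 and 288201 in heat 1 and 2, had the highest HSP70.2 share. A share of reads depends on transcript length as well as on the number of transcripts, and every share falls when another gene of the sum rises. HSPA8 had a smaller share in heat although its own CPM was higher there.

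**Figure D3:**
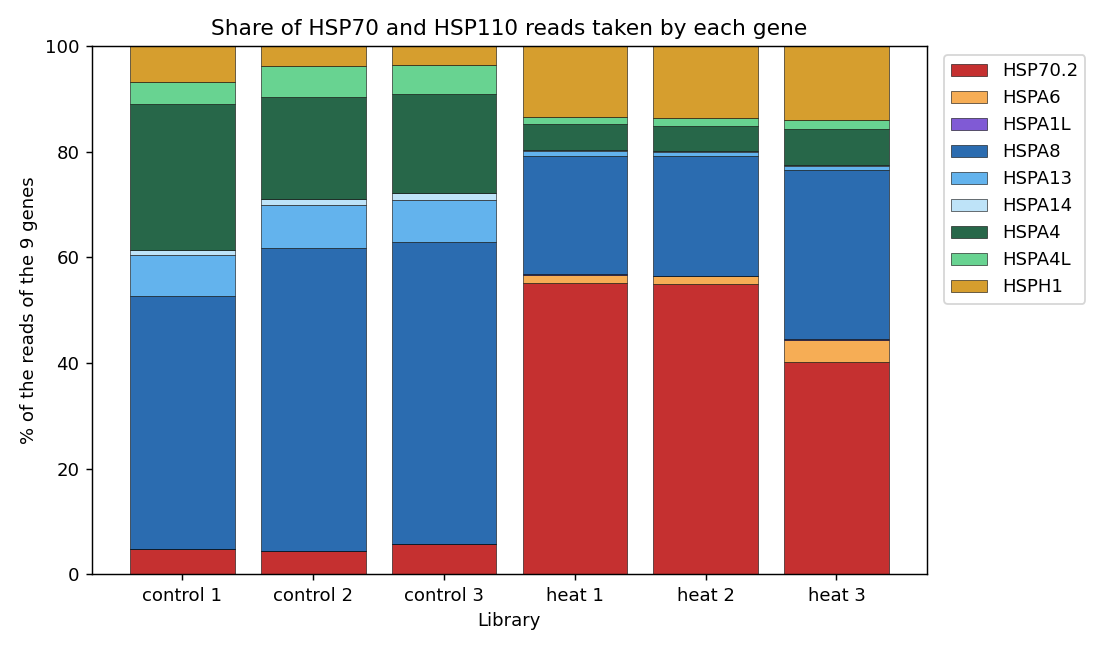
Percent of the reads of the 9 genes taken by each gene (stacked bars, 1 bar per library). HSPA8 is the widest band in the controls (47.9 to 57.3%) and HSP70.2 in heat (40.1 to 55.2%), with heat 3 between the other heat libraries and the controls.

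The same turn was seen inside the HSP110 group. HSPA4 took 71.6, 66.4 and 67.4% of HSP110 reads in control 1, 2 and 3 against 25.2, 24.0 and 30.6% in heat 1, 2 and 3, while HSPH1 went from 17.7, 13.1 and 12.8% to 67.9, 68.5 and 61.97%. HSPA4L took 16.99 ± 5.48% and 7.26 ± 0.386% (SD, n = 3). Wilson intervals at the 95% level were at most 1.56 percentage points wide for these shares, 1.02 points for shares of HSP70 reads and 0.963 points for shares of the 9 genes.

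Ratios of reads between members were also taken within each library, where the scaling of the library cancels. For every read of HSPA8 there were 0.0983, 0.0764 and 0.0999 reads of HSP70.2 in control 1, 2 and 3 against 2.45, 2.42 and 1.25 in heat 1, 2 and 3. For every read of HSPA4 there were 0.247, 0.198 and 0.190 reads of HSPH1 in control 1, 2 and 3 against 2.69, 2.86 and 2.03 in heat 1, 2 and 3. For every 100 reads of HSP70.2 there were 0.205, 0.758 and 0.246 reads of HSPA6 in the controls and 2.64, 2.59 and 10.4 in the heat libraries, the highest value being that of heat 3. Against HSPA8, HSPA13 stood at 16.3, 14.2 and 13.7 reads per 100 in the controls and at 4.17, 3.34 and 2.42 in the heat libraries. The mean log2 ratio of HSP70.2 to HSPA8 differed by 4.43 between groups, from -3.46 ± 0.217 to 0.966 ± 0.554 (SD, n = 3), with an exact two-sided permutation p = 0.1. That is the smallest p that 3 libraries against 3 can give, and it was the value for each of the 7 ratios computed, before and after Benjamini-Hochberg adjustment.

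Levels of different genes are comparable only per length, and this was possible for HSPA6 and HSP70.2, which are known as genes without introns. Per kilobase of their RefSeq spans (2518 and 1926 bases), HSP70.2 stood at 3061, 2997 and 2504 CPM in heat 1, 2 and 3 and HSPA6 at 61.9, 59.3 and 199 CPM. HSP70.2 was thus 49.4, 50.5 and 12.6 times as high per kilobase of these spans in heat 1, 2 and 3. No source used here names the annotation behind the counts, so the counted lengths, and with them these ratios, may differ.

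Genes that work with HSP70, regulate it or are related to it, called partner genes here, were taken from 5 lists. These were J-domain proteins, exchange factors, HSP90 partners, heat shock factors with HSBP1, and relatives in other compartments. Of 40 listed genes 38 were tested. In all, 10 were called higher (against 6.71% of all genes), 1 lower (against 4.32%) and 27 neither, and the median log2 fold change was 0.67 against 0.05 over all genes tested. For 22 of 38 every heat library lay above every control, as for 20.9% of all genes, and for 3 below, as for 16.8%. Without control 2 or control 3 edgeR called 0 of them, with 14 higher (12.6 and 12.9% of all genes) and 1 lower (8.42 and 9.06%) at an unadjusted p below 0.05 in each case. DESeq2 without those libraries called 10 and 11 higher (5.4 and 6.31% of all genes) and 1 lower (3.28 and 3.97%), the latter share being close to that of all genes. Without heat 1 or heat 2 edgeR called 1 higher (0.0475 and 0.0406% of all genes).

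Among 12 tested J-domain genes, 3 rose (6.71% of all genes were higher), 1 fell (4.32% were lower) and 8 did not pass by edgeR. DNAJA4 had 12.8, 18.6 and 18.0 CPM in control 1, 2 and 3 and 226, 219 and 223 CPM in heat 1, 2 and 3 (log2 fold change 3.75 ± 0.33 SE, edgeR adjusted p = 0.00906). DNAJB1, the HSP40 that works with HSP70 on aggregates, had 9.35, 29.3 and 28.6 CPM in controls and 183, 206 and 508 CPM in heat. Heat 3 was the highest heat library for DNAJB1, as for HSPA6 and for every other tested J-domain gene except DNAJA4, DNAJB2 and DNAJC2. DNAJB2 rose by 2.64 ± 0.46 (SE) on the log2 scale, and DNAJB14, a membrane J-domain protein of the endoplasmic reticulum, fell by 1.40 ± 0.32. DNAJA1, a partner of HSPA8, was higher in every heat library without passing (log2 fold change 1.17 ± 0.42 SE, edgeR adjusted p = 0.0953), and DESeq2 called it higher.

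Of 7 genes on the exchange factor list, BAG3, BAG2 and BAG6 rose (6.71% of all genes were higher) and 4 did not pass by edgeR. Of those 4, DESeq2 called HSPBP1 higher. BAG3, which links HSP70 to autophagy, had 48.8, 13.4 and 16.3 CPM in control 1, 2 and 3 and 428, 424 and 655 CPM in heat 1, 2 and 3. BAG2, an inhibitor of the ubiquitin ligase CHIP, rose by 1.84 ± 0.34 and BAG6, which handles misplaced membrane proteins, by 1.20 ± 0.28 (log2, SE). Of 10 genes of HSP90 and client handover, 3 rose (6.71% of all genes were higher) and 7 did not pass by edgeR. STIP1 (HOP), the bridge between HSP70 and HSP90, had 65.8, 82.5 and 95.5 CPM in controls and 220.5, 217 and 232 CPM in heat (log2 fold change 1.46 ± 0.30 SE, edgeR adjusted p = 0.0352). FKBP4, an HSP90 immunophilin, rose by 2.34 ± 0.30 and AHSA1, which activates the HSP90 ATPase, by 1.33 ± 0.26 (log2, SE). DESeq2 also called higher HSP90AA1, the inducible HSP90 (1834, 2396 and 2063 CPM in controls, 5118, 5156 and 4399 CPM in heat, edgeR adjusted p = 0.0904), and CHORDC1, an HSP90 co-chaperone (edgeR adjusted p = 0.06).

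None of the 4 tested genes of the heat shock factor list, which also holds HSBP1, passed by edgeR. At an unadjusted p below 0.05, 1 did (19.5% of all genes higher, 14.4% lower), HSF1, which DESeq2 called higher. The 2 with the highest means were HSBP1, which binds HSF1 trimers, and HSF2. HSBP1 had 105, 136 and 149 CPM in control 1, 2 and 3 and 63.2, 60.6 and 160 CPM in heat 1, 2 and 3, and HSF2 had 41.3, 36.9 and 34.9 against 29.4, 27.9 and 34.6 CPM. Transcript levels do not show the activity of these factors, which is set on the protein.

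Among HSP70 relatives and their helpers in other compartments, HSPA5 (BiP), the HSP70 of the endoplasmic reticulum, rose. The other 4 tested genes did not pass by edgeR, which called 6.71% of all genes higher. HSPA5 had 1523, 886 and 722 CPM in control 1, 2 and 3 and 14496, 13400 and 3118 CPM in heat 1, 2 and 3 (log2 fold change 3.31 ± 0.73 SE, edgeR adjusted p = 0.0384). Heat 3 was thus the lowest heat library for HSPA5 and HSP70.2. It was the highest for HSPA6, HSPA8 and HSPH1, and also for HSPA1L, HSPA14, HSPA4 and HSPA4L. HYOU1, the HSP110-like relative of the endoplasmic reticulum, had 190, 31.4 and 42.2 CPM in control 1, 2 and 3 and 961, 938 and 232 CPM in heat 1, 2 and 3. All its heat values lay above all controls (log2 fold change 3.02 ± 0.86 SE, edgeR adjusted p = 0.0595), and DESeq2 and limma-voom called it higher. HSPA9, the mitochondrial HSP70 known as mortalin, stood at 329, 310 and 270 CPM in controls and 284, 288 and 299 CPM in heat.

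**Figure D4:**
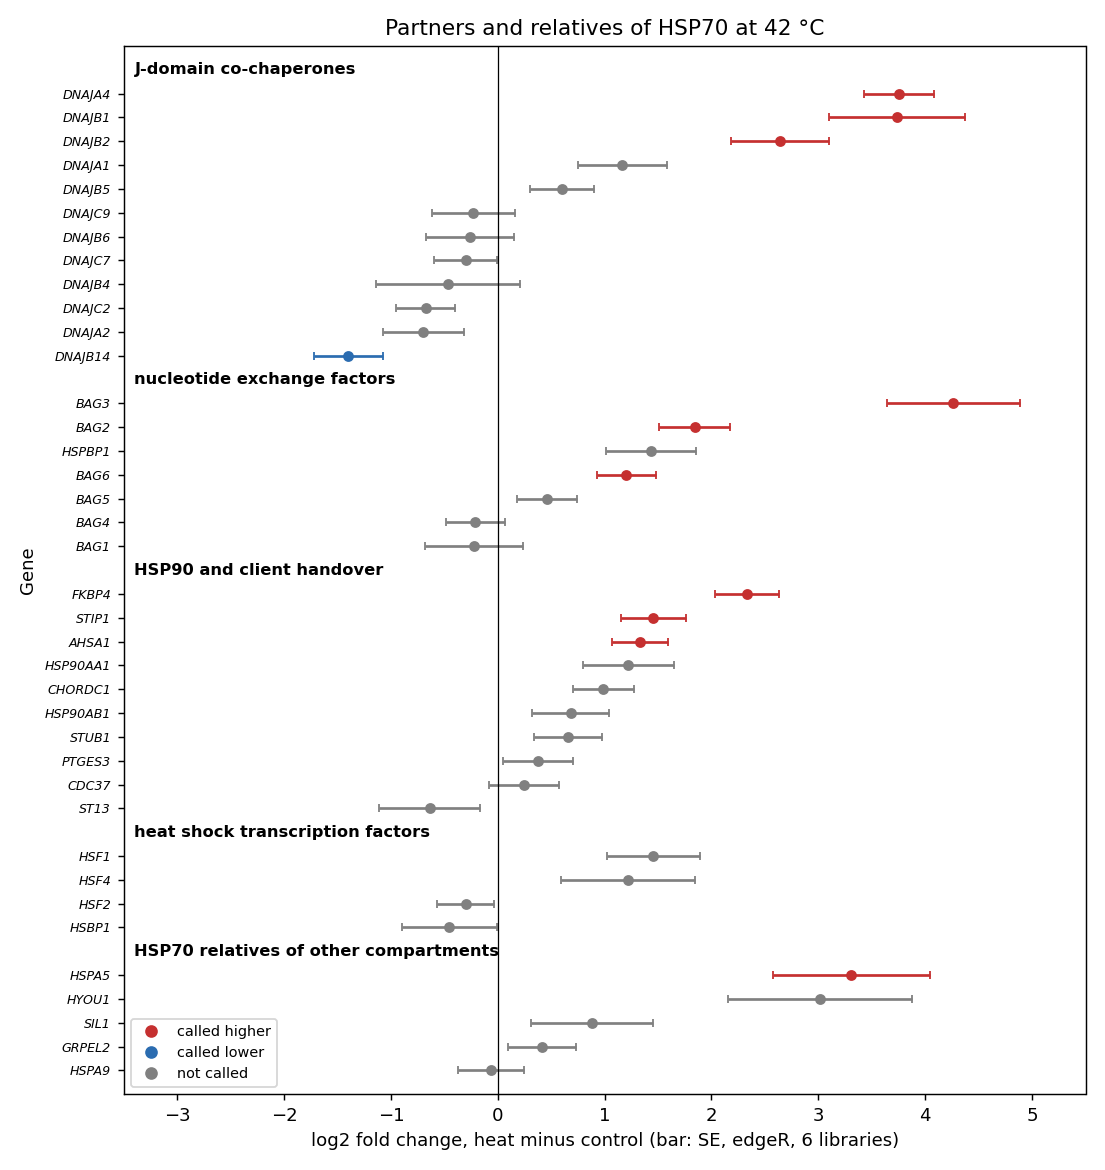
Log2 fold change, heat minus control, with its SE (edgeR, 6 libraries) of the 38 tested partner genes, by list and coloured by call. BAG3, DNAJA4 and DNAJB1 lie farthest to the right (4.26, 3.75 and 3.74) and DNAJB14 is the only gene called lower (-1.40).

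By Pearson correlation of log2 CPM over the 6 libraries, among 9749 genes with a symbol and a mean log2 CPM of at least 1, the 3 genes most like HSP70.2 were XPNPEP3 (r = 0.999), AHSA1 (0.998) and TRIM27 (0.997). XPNPEP3, a mitochondrial aminopeptidase, had 15.7, 14.8 and 15.5 CPM in control 1, 2 and 3 and 33.1, 33.5 and 32.9 CPM in heat 1, 2 and 3. Those most like HSPA8 were DACT1 (0.991), TUBB2A (0.989) and HNRNPL (0.986). DACT1, an adaptor of Wnt signalling, had 15.7, 18.1 and 17.7 CPM in controls and 33.1, 33.2 and 47.6 CPM in heat, with heat 3 the highest as for HSPA8. These r values describe 6 libraries in 2 groups, so a like difference between the groups is enough to make them high.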

How the data were processed

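Per the labels, stranded mRNA libraries were read as pairs. Per the submitters' processing notes, STAR, Trim Galore and FastQC 0.11.4 were run, with Sscrofa11.1 as the build. No source used here names the counter, the annotation or the normalization tool. The deposited raw counts per Ensembl gene were used as made by the authors. The deposited normalized table holds a signal, which the authors' values show to be those counts divided by 1 factor per library; 100% of values came out whole on multiplying back (tolerance 1e-06), and edgeR on those reads called 981 genes higher and 650 lower.

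Heat was compared with control by edgeR 4.0.16 in R 4.3.3 (glmQLFit and glmQLFTest, robust, two-sided, TMM, filterByExpr with a minimum count of 10), fitted to all 14242 genes tested and adjusted by the Benjamini-Hochberg method. The SE is the log2 fold change over the square root of F. The test was checked on simulated data. Symbols came from a reference table (15623 identifiers). All members are named. Of each of 5 partner lists, called genes or, with none called, the 2 with the highest means were to be named; DNAJA1, DNAJC2, HSPBP1, HSP90AA1, CHORDC1, HYOU1, HSPA9 and HSF1 were named after their values were seen. The members and lists were chosen with earlier results of these data known. Alternatives used limma 3.58.1 and DESeq2 1.42.0 among others. DESeq2 without each library and the fit to recovered reads were added after seeing the data. Shares per coding length were not run, as no transcript lengths were used here.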

Additional observations from a re-analysis of the deposited data

How the results depend on the processing

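Direction held for 8 of the 9 members over 25 alternative fits, of which 22 tested HSPA6. Directions were not compared for glmTreat. HSPA4 was the exception: its log2 fold change ranged from -0.20 to 0.33 over fits without 1 library, by edgeR or DESeq2, and was negative without control 2 (-0.0047 by edgeR, -0.06 by DESeq2), control 3 (-0.06, -0.11) or heat 3 (-0.18, -0.20). Over the same fits, 0 to 5 members were called higher and 0 to 2 lower, and 0 to 18 partner genes higher and 0 to 6 lower, against 0 to 23.8% of all genes higher and 0 to 23.5% lower. The 6 of 38 came without heat 3 by DESeq2, where 23.5% of all genes were lower.

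With all libraries, edgeR called 4 members higher (6.71% of all genes) and 1 lower (4.32%). The same fit called 10 partner genes higher and 1 lower. Members called lower numbered 0 with library totals as the only scaling (2.92% of all genes lower), with no filter (3.3%) and with glmTreat against a fold of 1.5 (0.66%). They also numbered 0 with the near-identical libraries summed (0%) and at an adjusted p below 0.01 (0.00702%). DESeq2 called 2 lower (12.6%), and 2 were lower with control 1 and heat 3 both left out (38.4%). Members called higher numbered 1 with the libraries summed (0.0129% of all genes higher) and 2 at an adjusted p below 0.01 (0.0632%). Partner genes called higher numbered 22 with control 1 and heat 3 left out (41.2% of all genes), 16 by DESeq2 (14.9%), 5 by glmTreat (1.14%), 1 at an adjusted p below 0.01 and 0 with the libraries summed, where 10 passed at an unadjusted p below 0.05 (6.87% of all genes). Those called lower numbered 11 with both libraries left out (38.4%), and 0 by glmTreat, with library totals, with the libraries summed and at an adjusted p below 0.01. The cause of these shifts was not tested. Library totals moved the median log2 fold change of all genes from 0.05 to 0.17, and the higher share of all calls from 60.9 to 79.2%.

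The labels do not say whether a replicate number pairs a control with a heat library. Deviations of same-numbered libraries from their group means correlated at 0.30, -0.23 and 0.22. By these deviations, the heat library nearest to control 2 was heat 3, at 0.29. With n = 3 per group and near-identical libraries in each, these values cannot decide whether the numbers pair the samples. With the number as a replicate block, 4 members were higher (14.8% of all genes) and 2 lower (9.13%), the added one being HSPA14.

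With 13 mitochondrial protein genes left out of the total, the members took 0.304 ± 0.00775% of control counts and 1.24 ± 0.139% of heat counts (SD, n = 3). With them in, these were 0.251 and 1.16%. Over the HSP70 genes alone HSP70.2 took 7.25% of reads in controls and 63.1% in heat, and HSPA8 79.3 and 32.6%. With HSPA5, HSPA9 and HYOU1 added these were 3.24, 25.4, 35.6 and 14.4%, with SDs of 0.695, 4.72, 7.04 and 8.81 points (n = 3). The fits to the normalized table and to reads recovered from it covered 8 members, without HSPA6. Depth limits the control level of HSPA6, at 4 to 20 reads. Shares per coding length were not run.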
